A study of Mus musculus with 14 samples.

Results

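The 43 genes described here copy DNA in S phase, load and fire the replicative helicase, supply deoxynucleotides, rebuild chromatin behind the fork or drive entry into S phase. They were taken from a fixed list of mouse symbols, chosen with earlier results of these data known. All 43 were found among the 27179 Entrez genes of the count table. The samples were 14 bulk RNA libraries of CD4 T cells from C57BL/6 mice, isolated as naive cells, activated on plate-bound anti-CD3 and anti-CD28, cultured for 3.5 days and sorted by flow cytometry. Th1 (5 libraries) was differentiated under Th1 conditions, TfhA (4 libraries, numbered 1, 2, 4 and 5) under follicular helper (Tfh) conditions with TGF-β blocked by an antibody, and Tfh5 (5 libraries) under Tfh conditions with 5 ng/ml TGF-β. The cytokines of each culture, the sort gate, the age of the mice and whether libraries of a group came from separate animals or cultures are given by no source used here, so p-values measure only the spread between these samples, which may be technical.

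Before a cell divides it copies its genome once. In G1 the origin recognition complex, Cdc6 and Cdt1 load the ring-shaped MCM helicase onto origins; in S phase Cdc45 and the GINS complex switch the helicase on, and polymerases, the sliding clamp PCNA and its loader RFC extend the new strands. Most of these genes are transcribed from late G1 under the control of E2F transcription factors, which are released when cyclin-dependent kinases, among them those bound to cyclin E, inactivate the retinoblastoma protein. Naive T cells rest outside the cycle, and after antigen receptor stimulation they induce this programme and divide repeatedly.

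Library totals ran from 8805921 to 16108059 counts, and every one of the 43 genes passed the filter on low counts, so none was left untested. Th1 replicate 1 stood apart from the other Th1 libraries, the chi-square statistic of its counts over all genes, divided by its degrees of freedom, being 24.4 to 32.6 against each, where the other Th1 pairs gave 4.30 to 10.4. In Tfh5, pairs with replicate 1 gave 15.6 to 27.7 and the other pairs 6.14 to 15.8, and the TfhA pairs gave 12.4 to 21.9. Over the tested genes, deviations of Th1 replicate 1 from its group mean correlated with those of TfhA replicate 2 (r = 0.33). They correlated inversely with those of TfhA replicate 5 (r = -0.37). This is a description across genes, which are not independent. Without Th1 replicate 1, all 43 falls in Tfh5 against TfhA and all 41 calls against Th1 were made again. In TfhA against Th1, 29 genes rose and 1 fell (30 and 1 with it). Over the 12936 genes tested in that fit, 3686 rose and 3947 fell in Tfh5 against TfhA. The counts were 2799 and 2642 in TfhA against Th1, and 3997 and 4154 in Tfh5 against Th1. Levels are CPM, read counts relative to library totals after TMM scaling, listed in the order of the replicate numbers, and SD is over n = 5 libraries for Th1 and Tfh5 and n = 4 for TfhA. Log2 fold changes carry the SE of one edgeR fit over all libraries, and a gene is said to have risen or fallen where its adjusted p was under 0.05 over 13075 tested genes. The CD4 T cell markers Cd3d, Cd3e, Cd3g, Cd4, Cd28, Cd5 and Lck were present in every library, with levels that summed from 4219 to 4550 CPM in Th1, from 4635 to 5423 in TfhA and from 6482 to 6815 in Tfh5. The 6 B cell markers summed from 0.756 to 1.87 CPM in Th1, from 5.61 to 8.99 in TfhA and from 0.714 to 1.90 in Tfh5, with Pax5 without a count in Th1. The 7 monocyte, macrophage and dendritic cell markers summed from 1.04 to 1.75, from 6.05 to 9.21 and from 0.299 to 1.14 CPM, mostly through H2-Aa in TfhA (6.99 CPM), while Adgre1 had no count and Lyz2 a single count. The 6 CD8 T cell and NK cell markers summed from 30.8 to 58.0, from 49.0 to 63.9 and from 66.4 to 112 CPM, mostly Cd8b1 and Klrd1, with Ncr1 at 0. Of the 5 granulocyte markers only Ly6g exceeded 1 CPM in any library, and the list summed from 119.8 to 178, from 22.7 to 30.8 and from 52.8 to 119.9 CPM. Whether these transcripts came from other cells, and any part of such cells in the differences below, was not tested.

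Transcripts of most of the replication genes were lowest in Tfh5 and highest in TfhA. Together they took 0.669% ± 0.0157 of all counts in TfhA, 0.484% ± 0.0145 in Th1 and 0.296% ± 0.0134 in Tfh5, and the 3 ranges did not overlap. All 43 fell and none rose in Tfh5 against TfhA, with a median of 2.73-fold, where 30.1% of all tested genes fell, 27.4% rose and 57.5% passed in either direction. Of these, 35 fell by at least 2-fold, against 13.1% of tested genes. In TfhA against Th1, 30 rose (background 23.2%), 1 fell (background 21.6%) and 12 did not pass, where 44.8% of tested genes changed in either direction. None changed by 2-fold in that comparison (background 5.37% for rises and 8.29% for falls of that size). In Tfh5 against Th1, 40 fell (background 33%), 20 of them by at least 2-fold (background 15.3%), 1 rose (background 31.5%) and 2 did not pass, where 64.6% of tested genes changed in either direction.

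The median log2 fold change of the 43 genes was -1.45 in Tfh5 against TfhA, 0.40 in TfhA against Th1 and -0.91 in Tfh5 against Th1, while the median over all tested genes was -0.01, 0.03 and -0.01. The order of the group means was TfhA, Th1, Tfh5 from high to low for 36 genes. In 4 the Th1 mean was the highest (Orc1, Cdt1, Rfc3 and E2f1), and in 3 it was the lowest (Mcm6, Gins1 and Rpa1). No library of Tfh5 overlapped TfhA for any of the 43 genes, where 23.4% of tested genes were lower in Tfh5 without overlap. TfhA lay above Th1 without overlap for 26 genes (background 19.3%), and Tfh5 below Th1 for 39 (background 26.5%). The 3 comparisons share their libraries in pairs, so they are not independent of each other. In bulk RNA, fewer cells in S phase and less of each transcript per cell cannot be told apart.

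**Figure D1:**
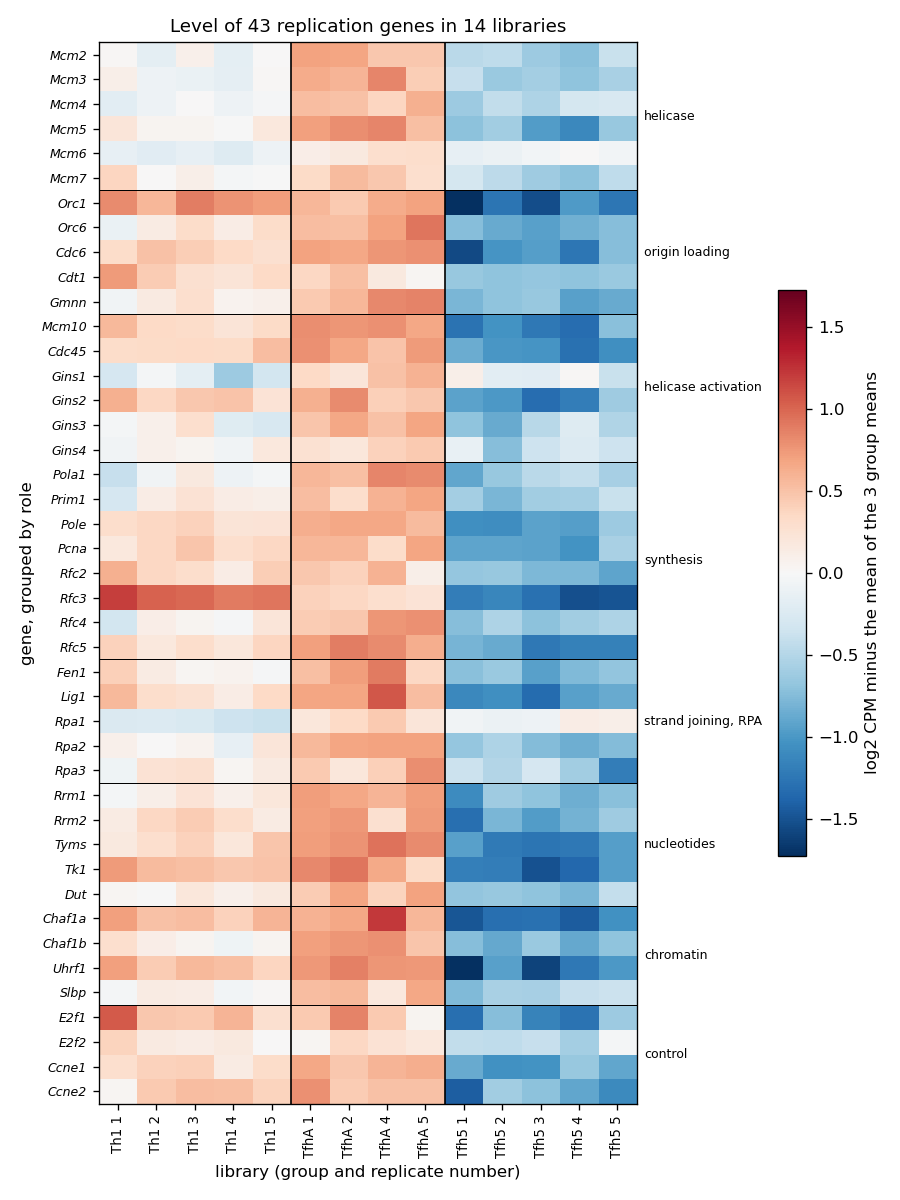
Heat map of the level of each of the 43 genes (rows, grouped by role) in each of the 14 libraries (columns), as log2 CPM minus the mean of the 3 group means. Tfh5 columns are blue for nearly all genes and TfhA columns red; Mcm6, Gins1 and Rpa1 are pale in Tfh5, and Rfc3 is reddest in Th1.

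**Figure D2:**
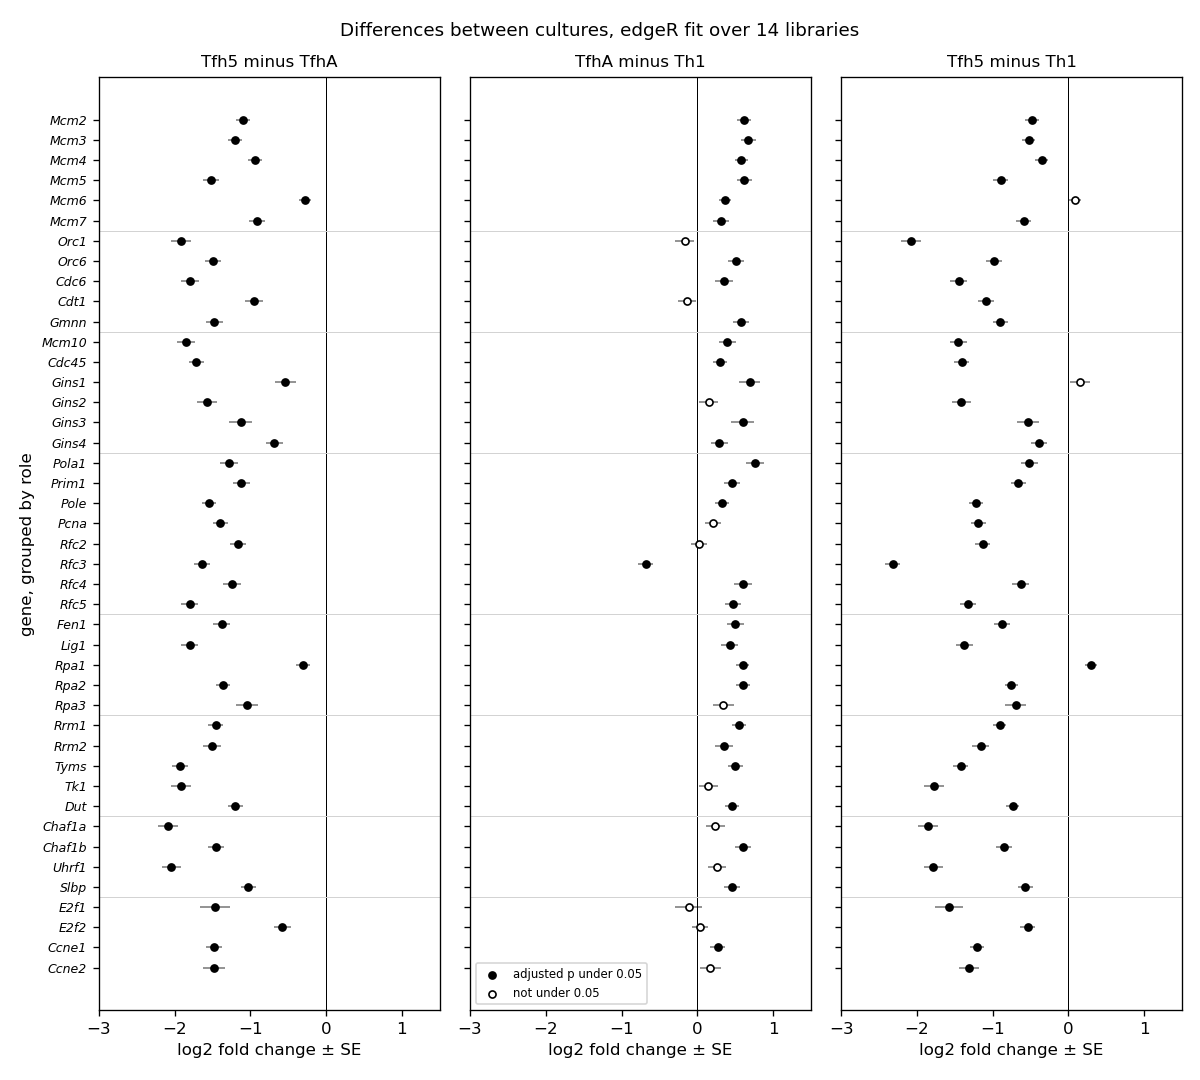
Log2 fold change ± SE from the edgeR fit for each gene in the 3 comparisons; filled points have an adjusted p under 0.05. Every point of Tfh5 minus TfhA lies left of 0, 39 of 43 points of TfhA minus Th1 lie right of 0, and in Tfh5 minus Th1 Mcm6, Gins1 and Rpa1 lie right of 0.

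Promoters were read because all 43 genes fell in Tfh5 against TfhA and many are known E2F targets. Within groups, their deviations over the 14 libraries had a median pairwise correlation of 0.07 (903 pairs, 56.3% positive). RefSeq start sites of GRCm38.p6, the assembly of mm10, gave windows of 250 bases before to 50 after the start for 35 of the 43 genes (41 windows). The 4 words of the E2F consensus, TTTCGCGC, TTTGGCGC, TTTCCCGC and TTTGCCGC, were searched on both strands, each match counted even where matches on opposite strands overlapped; none of the words contains CCAAT or TTTGAA. At least 1 of them was present in 13 of the 41 windows (31.7%), against 2.26% of all 32851 windows and 4.01% of the windows of tested genes. CCAAT was present in 63.4% of the windows, against 37.4% of all and 38.0% of those of tested genes, and TTTGAA, the core of the cell cycle homology region of mitotic genes, in 12.2%, against 17.9% and 12.2%. The median GC content of the windows was 60.0% for these genes, 60.7% for tested genes and 52.7% for all windows. The median log2 fold change in Tfh5 against TfhA was -1.28 for the 13 genes with an E2F word and -1.46 for the 22 genes with a window but no word. These matches describe letters in a window and are no measure of binding. Since many of these genes are known E2F targets, more E2F words than the background could be expected from the list alone.

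The 5 stretches are printed 5′ to 3′, from 150 bases before the start site to 30 after it, with the E2F words in capitals: the genes of Mcm2 to Mcm7 with the smallest and the largest fall in Tfh5, the 2 origin genes Orc1 and Cdc6, and Rfc3, which fell most against Th1. They are Mcm6 (chr1:128359676-128359855, minus strand), Mcm5 (chr8:75109359-75109538, plus strand), Orc1 (chr4:108579304-108579483, plus strand), Cdc6 (chr11:98908001-98908180, plus strand) and Rfc3 (chr5:151651179-151651358, minus strand). Counting the start base as 1 and the base before it as -1, the words of Mcm6 begin at -110, -106 and -47, the first pair sharing bases across the strands. The word of Mcm5 begins at -149 and overlaps another that begins before the printed stretch, that of Orc1 begins at -27, that of Cdc6 at -138, and those of Rfc3 at -10 and 1.
Mcm6: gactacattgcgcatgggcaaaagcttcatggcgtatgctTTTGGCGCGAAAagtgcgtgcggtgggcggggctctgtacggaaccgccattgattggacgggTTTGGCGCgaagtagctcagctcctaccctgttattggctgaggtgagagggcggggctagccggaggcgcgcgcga
Mcm5: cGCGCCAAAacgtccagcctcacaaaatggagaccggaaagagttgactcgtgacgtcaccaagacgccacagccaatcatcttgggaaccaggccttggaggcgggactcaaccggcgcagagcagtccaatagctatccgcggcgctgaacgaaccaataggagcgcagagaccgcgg
Orc1: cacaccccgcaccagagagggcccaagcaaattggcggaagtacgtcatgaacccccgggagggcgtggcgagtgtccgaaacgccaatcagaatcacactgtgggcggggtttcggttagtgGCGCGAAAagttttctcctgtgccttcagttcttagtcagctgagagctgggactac
Cdc6: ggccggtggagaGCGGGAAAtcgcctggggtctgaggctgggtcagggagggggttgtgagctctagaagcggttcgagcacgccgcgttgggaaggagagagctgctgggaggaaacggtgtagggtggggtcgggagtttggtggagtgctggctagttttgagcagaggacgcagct
Rfc3: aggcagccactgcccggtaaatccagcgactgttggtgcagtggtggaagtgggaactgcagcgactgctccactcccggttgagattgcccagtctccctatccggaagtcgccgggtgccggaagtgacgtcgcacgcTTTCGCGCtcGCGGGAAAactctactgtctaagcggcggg

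The MCM helicase unwinds the template and is built from 1 copy each of Mcm2 to Mcm7. All 6 genes fell in Tfh5 against TfhA and rose in TfhA against Th1, and 5 of 6 fell in Tfh5 against Th1, the exception being Mcm6. edgeR adjusted p-values were 6.25e-12 to 0.00363 in the first comparison, 2.03e-06 to 0.0147 in the second and 2.26e-08 to 0.307 in the third. Over all tested genes, 30.1% fell in the first, 23.2% rose in the second and 33% fell in the third. The same shares stand beside the counts of the sets below. Below, log2 fold changes are given in the order Tfh5 minus TfhA, TfhA minus Th1 and Tfh5 minus Th1. Mcm2 was at 123, 107, 128, 108 and 121 CPM in Th1, 195, 193, 166 and 166 CPM in TfhA and 87.1, 89.0, 78.3, 73.5 and 92.1 CPM in Tfh5. Its log2 fold changes of -1.10 ± 0.09, 0.62 ± 0.09 and -0.48 ± 0.09 put every TfhA library above every Th1 library, and every Th1 library above every Tfh5 library. Mcm3 was at 280.4, 246, 242, 236 and 265 CPM in Th1, 408, 392, 471 and 352 CPM in TfhA and 198, 169, 174, 162 and 178 CPM in Tfh5. The Mcm3 groups did not overlap in any pair (log2 fold changes of -1.20 ± 0.09, 0.68 ± 0.09 and -0.53 ± 0.09). Mcm4 was at 354, 379, 405, 381 and 399 CPM in Th1, 586, 571, 522 and 619 CPM in TfhA and 261, 302, 279, 326 and 333 CPM in Tfh5. Mcm4 likewise separated all 3 groups (log2 fold changes of -0.94 ± 0.09, 0.58 ± 0.09 and -0.35 ± 0.08). Mcm5, which fell most of the 6 in Tfh5, was at 147, 131, 131, 126 and 143 CPM in Th1, 206, 220.4, 226 and 182 CPM in TfhA and 77.3, 83.2, 64.9, 58.3 and 80.4 CPM in Tfh5. It was 2.86-fold lower in Tfh5 than in TfhA and 1.86-fold lower than in Th1 (log2 fold changes of -1.52 ± 0.10, 0.62 ± 0.10 and -0.90 ± 0.10). Mcm6 was at 484, 466, 482, 457 and 502 CPM in Th1, 574, 598, 649 and 654 CPM in TfhA and 484, 497, 515, 532 and 515 CPM in Tfh5. Its TfhA libraries stood above the others, while Th1 and Tfh5 overlapped and differed by 0.09 ± 0.07 (edgeR adjusted p = 0.307); the fall against TfhA was 1.22-fold (-0.28 ± 0.08). Mcm7, whose gene hosts a miRNA cluster, was at 99.2, 77.5, 82.9, 74.9 and 76.9 CPM in Th1, 97.0, 113, 106 and 94.4 CPM in TfhA and 62.5, 56.5, 50.2, 47.3 and 57.0 CPM in Tfh5. Th1 replicate 1 overlapped TfhA for this gene, and the 5 Tfh5 libraries lay below all others (log2 fold changes of -0.91 ± 0.10, 0.32 ± 0.10 and -0.59 ± 0.10).

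Orc1 and Orc6 belong to the origin recognition complex, Cdc6 and Cdt1 load MCM, and geminin (Gmnn) binds Cdt1 and blocks a second round of loading. All 5 fell in Tfh5 against both other groups (edgeR adjusted p = 3.99e-12 to 1.36e-07 against TfhA and 3.42e-13 to 2.84e-08 against Th1). Against Th1, TfhA was higher for Orc6, Cdc6 and Gmnn and did not pass for Orc1 and Cdt1. Orc1 was at 42.0, 35.6, 44.2, 40.9 and 39.5 CPM in Th1, 35.6, 32.6, 37.4 and 38.7 CPM in TfhA and 7.24, 9.99, 8.30, 12.1 and 10.1 CPM in Tfh5. The Th1 and TfhA libraries overlapped (-0.17 ± 0.12, edgeR adjusted p = 0.294), and Tfh5 was 3.77-fold below TfhA and 4.23-fold below Th1. Cdc6 was at 61.4, 69.7, 66.1, 62.3 and 59.4 CPM in Th1, 79.8, 77.7, 82.8 and 84.7 CPM in TfhA and 16.7, 24.3, 25.3, 20.7 and 29.4 CPM in Tfh5. All 3 groups were separate, with log2 fold changes of -1.80 ± 0.12, 0.35 ± 0.12 and -1.45 ± 0.12. Cdt1 was at 82.1, 66.8, 59.9, 57.8 and 62.4 CPM in Th1, 63.0, 70.7, 55.4 and 50.3 CPM in TfhA and 31.4, 30.4, 31.1, 30.5 and 31.7 CPM in Tfh5. The 5 Tfh5 libraries spanned less than 2 CPM and lay below all others (-0.95 ± 0.12 against TfhA and -1.09 ± 0.11 against Th1), while Th1 and TfhA overlapped (-0.14 ± 0.11, edgeR adjusted p = 0.35). Gmnn was at 57.6, 66.7, 73.5, 62.5 and 63.7 CPM in Th1, 82.2, 89.1, 106 and 109 CPM in TfhA and 34.6, 37.0, 38.1, 31.1 and 32.9 CPM in Tfh5. It separated all 3 groups and rose 1.49-fold in TfhA against Th1 (log2 fold changes of -1.47 ± 0.11, 0.57 ± 0.10 and -0.90 ± 0.10). Orc6 averaged 85.8 ± 10.1 CPM in Th1, 122 ± 16.8 in TfhA and 43.4 ± 2.72 in Tfh5, with log2 fold changes of -1.49 ± 0.11, 0.51 ± 0.10 and -0.98 ± 0.10.

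Mcm10, Cdc45 and the 4 GINS subunits turn loaded MCM into a moving helicase. All 6 fell in Tfh5 against TfhA (edgeR adjusted p = 2.70e-13 to 0.00178), 5 of 6 rose in TfhA against Th1 and 5 of 6 fell in Tfh5 against Th1. Cdc45 was at 72.9, 73.2, 73.9, 73.5 and 84.1 CPM in Th1, 101, 92.8, 82.1 and 96.6 CPM in TfhA and 32.2, 29.1, 28.9, 23.9 and 27.9 CPM in Tfh5. Tfh5 was 3.28-fold below TfhA and 2.66-fold below Th1, and Th1 replicate 5 reached into the TfhA range (log2 fold changes of -1.71 ± 0.10, 0.30 ± 0.10 and -1.41 ± 0.10). Gins1 was at 17.0, 20.4, 18.5, 13.5 and 16.7 CPM in Th1, 26.4, 23.97, 29.7 and 31.5 CPM in TfhA and 22.3, 18.4, 18.1, 21.2 and 15.9 CPM in Tfh5. Its Th1 and Tfh5 libraries overlapped (0.15 ± 0.13, edgeR adjusted p = 0.317), and both lay below TfhA. Mcm10 averaged 57.2 ± 5.02 CPM in Th1, 75.4 ± 3.41 in TfhA and 20.8 ± 3.84 in Tfh5 and had the largest fall of this set against TfhA (3.61-fold, -1.85 ± 0.12). Gins2 averaged 54.6 ± 5.53 CPM in Th1, 60.6 ± 7.80 in TfhA and 20.4 ± 3.96 in Tfh5, 2.96-fold lower in Tfh5 than in TfhA, and did not pass between TfhA and Th1 (0.15 ± 0.13, edgeR adjusted p = 0.346). Of the exon bases of Gins2, 67.3% are also exons of Gse1 on the other strand, and without the strand setting of the counting the reads of the pair cannot be told apart. Gins3 averaged 14.1 ± 2.28 CPM in Th1, 21.4 ± 1.58 in TfhA and 9.74 ± 1.65 in Tfh5 and Gins4 59.7 ± 4.26 CPM in Th1, 73.1 ± 5.91 in TfhA and 45.5 ± 6.79 in Tfh5. The falls of Gins3 and Gins4 in Tfh5 against TfhA were 2.19-fold and 1.605-fold; against Th1 both fell, Gins3 with overlapping libraries (-0.53 ± 0.15 and -0.39 ± 0.10).

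DNA synthesis starts with the primase and polymerase α subunits Prim1 and Pola1, continues with polymerase ε (Pole) on the leading strand, and depends on the clamp PCNA, which RFC opens and closes. All 8 genes of this set fell by at least 2-fold in Tfh5 against TfhA (edgeR adjusted p = 5.71e-13 to 3.14e-09), and all 8 fell against Th1 (1.42e-16 to 2.53e-04). Of all tested genes, 13.1% fell by at least 2-fold in Tfh5 against TfhA. Between TfhA and Th1 the set split: 5 rose, Rfc3 fell, and Pcna and Rfc2 did not pass. Pcna was at 119.8, 135, 148, 129 and 136 CPM in Th1, 158, 157, 131 and 169.7 CPM in TfhA and 56.3, 56.4, 55.9, 51.8 and 71.7 CPM in Tfh5. Tfh5 lay 2.63-fold below TfhA and 2.28-fold below Th1, and TfhA overlapped Th1 (0.21 ± 0.10, edgeR adjusted p = 0.101). Reads of Pcna can be shared with processed pseudogenes that RefSeq lists for it. Pola1 was at 49.0, 61.6, 72.3, 60.8 and 63.4 CPM in Th1, 95.7, 92.7, 115 and 113 CPM in TfhA and 34.7, 41.0, 46.8, 48.7 and 43.3 CPM in Tfh5. It had the largest rise of the 43 genes in TfhA against Th1 (1.70-fold, 0.76 ± 0.11), and all 3 groups were separate. Rfc3 was at 164, 146, 143, 134 and 137 CPM in Th1, 94.8, 92.7, 88.0 and 85.1 CPM in TfhA and 31.4, 33.1, 29.5, 25.1 and 25.8 CPM in Tfh5. Every Th1 library stood above every TfhA library and every TfhA library above every Tfh5 library, and the fall of Tfh5 against Th1 was 4.99-fold, the largest of the 43 genes (log2 fold changes of -1.64 ± 0.10, -0.68 ± 0.10 and -2.32 ± 0.10). Rfc2 was at 212, 177, 172, 152 and 187 CPM in Th1, 192, 182, 211 and 148 CPM in TfhA and 87.6, 88.3, 80.8, 80.9 and 73.8 CPM in Tfh5. Its Th1 and TfhA libraries overlapped (0.03 ± 0.11, edgeR adjusted p = 0.851), and Tfh5 was 2.23-fold below TfhA. Prim1 averaged 165 ± 21.99 CPM in Th1, 227 ± 24.5 in TfhA and 105 ± 10.6 in Tfh5. Pole averaged 108 ± 5.86 CPM in Th1, 136 ± 5.41 in TfhA and 46.5 ± 6.07 in Tfh5. The last 2 loader subunits rose in TfhA and fell in Tfh5, Rfc4 at 33.3 ± 4.30 CPM in Th1, 50.8 ± 6.60 in TfhA and 21.5 ± 1.46 in Tfh5 and Rfc5 at 45.9 ± 3.14 CPM in Th1, 63.7 ± 5.17 in TfhA and 18.3 ± 2.52 in Tfh5.

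The flap nuclease Fen1 and DNA ligase I (Lig1) finish lagging-strand fragments, and RPA, a trimer of Rpa1, Rpa2 and Rpa3, coats single-stranded DNA. All 5 fell in Tfh5 against TfhA (edgeR adjusted p = 1.30e-12 to 0.00497); against Th1 4 fell and Rpa1 rose. Rpa1 was at 91.3, 91.8, 90.6, 84.6 and 83.2 CPM in Th1, 124, 138, 149 and 125 CPM in TfhA and 104, 101, 102, 119 and 116 CPM in Tfh5. The Tfh5 libraries lay between the other groups, 1.23-fold below TfhA and 1.23-fold above Th1 (0.30 ± 0.08, edgeR adjusted p = 0.00328), with no overlap. Rpa1 was the only one of the 43 genes that rose in Tfh5 against Th1. Rpa2 averaged 103 ± 9.30 CPM in Th1, 157 ± 7.19 in TfhA and 61.0 ± 5.12 in Tfh5, with log2 fold changes of -1.36 ± 0.09, 0.61 ± 0.09 and -0.75 ± 0.09. Rpa3 averaged 56.1 ± 5.56 CPM in Th1, 71.3 ± 12.6 in TfhA and 34.7 ± 7.66 in Tfh5 and did not pass between TfhA and Th1 (0.35 ± 0.14, edgeR adjusted p = 0.0509). Lig1 averaged 156 ± 16.9 CPM in Th1, 209.6 ± 35.2 in TfhA and 60.0 ± 7.28 in Tfh5 and was 3.49-fold lower in Tfh5 than in TfhA. Fen1 averaged 60.4 ± 7.66 CPM in Th1, 85.5 ± 13.9 in TfhA and 32.9 ± 2.49 in Tfh5 (2.60-fold lower); 78.8% of its exon bases lie opposite the antisense transcript Gm10143, so its level depends on the unknown strand setting.

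Ribonucleotide reductase, whose subunits are Rrm1 and Rrm2, makes deoxynucleotides, thymidylate synthase (Tyms) and thymidine kinase (Tk1) make thymidylate by synthesis and salvage, and the dUTPase Dut keeps uracil out of DNA. All 5 fell by at least 2-fold in Tfh5 against TfhA (background 13.1%, edgeR adjusted p = 4.05e-14 to 8.05e-11) and all fell against Th1 (3.03e-12 to 1.15e-07), while 4 rose in TfhA against Th1. Rrm1 was at 417, 458, 499, 454 and 489 CPM in Th1, 704, 673, 637 and 703 CPM in TfhA and 201, 278, 262, 236 and 258 CPM in Tfh5. It separated all 3 groups (log2 fold changes of -1.46 ± 0.09, 0.55 ± 0.09 and -0.91 ± 0.09). Rrm2 was at 208, 243, 256, 235 and 210.0 CPM in Th1, 309.9, 319.9, 230.3 and 316 CPM in TfhA and 77.2, 109.6, 97.0, 108 and 124 CPM in Tfh5. TfhA replicate 4 lay within the Th1 range, and all Tfh5 libraries lay below both groups (log2 fold changes of -1.51 ± 0.12, 0.35 ± 0.12 and -1.16 ± 0.11). Tyms was at 74.5, 81.4, 87.5, 75.7 and 92.5 CPM in Th1, 109, 114, 127 and 117 CPM in TfhA and 34.6, 28.6, 27.7, 28.1 and 34.4 CPM in Tfh5. Its fall in Tfh5 was 3.80-fold against TfhA and 2.68-fold against Th1, and RefSeq lists a processed pseudogene of it. Tk1 was at 48.0, 42.2, 41.4, 40.0 and 40.6 CPM in Th1, 51.1, 54.5, 45.3 and 36.3 CPM in TfhA and 12.8, 12.6, 10.2, 11.3 and 14.9 CPM in Tfh5. The Th1 and TfhA libraries of Tk1 overlapped (0.14 ± 0.12, edgeR adjusted p = 0.368), and Tfh5 was 3.42-fold below Th1. Dut averaged 181 ± 10.6 CPM in Th1, 249 ± 27.7 in TfhA and 109 ± 11.3 in Tfh5, with log2 fold changes of -1.20 ± 0.10, 0.46 ± 0.09 and -0.74 ± 0.09.

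Chaf1a and Chaf1b are subunits of chromatin assembly factor 1, which places histones on new DNA, Uhrf1 brings the maintenance methyltransferase to hemimethylated sites, and Slbp binds the 3′ stem-loop of histone mRNA. All 4 fell in Tfh5 against both other groups (edgeR adjusted p = 1.25e-12 to 4.28e-09 against TfhA and 4.12e-12 to 1.47e-05 against Th1). The largest fall of the 43 genes against TfhA was that of Chaf1a (4.25-fold). Chaf1a was at 59.1, 51.4, 52.3, 47.4 and 54.1 CPM in Th1, 54.5, 57.2, 84.2 and 53.4 CPM in TfhA and 12.9, 14.6, 14.8, 13.3 and 17.4 CPM in Tfh5. TfhA replicate 4 stood apart within its group, and TfhA overlapped Th1 (0.24 ± 0.13, edgeR adjusted p = 0.135). Exons of Ubxn6 on the other strand cover 52.5% of the exon bases of Chaf1a, so part of its count could belong to that gene. In all, 15 of the 43 genes share exon bases with a gene on the other strand. The overlap exceeds 50% for 3 of them (Gins2, Fen1 and Chaf1a) and is next largest for Ccne2 (17.4%, with Ints8). Uhrf1 was at 94.3, 78.5, 85.4, 83.2 and 74.6 CPM in Th1, 97.4, 106, 98.0 and 96.9 CPM in TfhA and 17.5, 30.2, 19.2, 24.7 and 29.1 CPM in Tfh5. It was 4.12-fold lower in Tfh5 than in TfhA; TfhA lay above Th1 without overlap, yet the difference did not pass (0.26 ± 0.12, edgeR adjusted p = 0.0916). Slbp was at 131, 148, 146, 129 and 136 CPM in Th1, 194, 198, 153 and 213 CPM in TfhA and 79.1, 90.6, 90.3, 102 and 103 CPM in Tfh5. It fell 2.04-fold against TfhA and 1.48-fold against Th1, a smaller fold than for the other 3 genes of this set in both comparisons. Chaf1b averaged 43.1 ± 4.11 CPM in Th1, 65.4 ± 6.13 in TfhA and 23.9 ± 1.85 in Tfh5 (log2 fold changes of -1.45 ± 0.11, 0.60 ± 0.10 and -0.85 ± 0.10).

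E2f1 and E2f2 are activating E2F factors, and cyclins E1 and E2 (Ccne1, Ccne2) activate Cdk2 at the start of S phase. These 4 fell in Tfh5 against both other groups (edgeR adjusted p = 4.55e-12 to 6.69e-05 against TfhA and 4.99e-11 to 6.31e-05 against Th1), and between TfhA and Th1 only Ccne1 passed. E2f1 was at 25.9, 17.1, 16.9, 18.7 and 14.9 CPM in Th1, 16.9, 22.4, 16.9 and 12.7 CPM in TfhA and 5.05, 7.44, 5.57, 5.12 and 7.996 CPM in Tfh5. Th1 replicate 1 was the highest library and Tfh5 lay below all others, 2.76-fold under TfhA and 2.99-fold under Th1. E2f2 was at 107, 90.7, 89.5, 91.5 and 82.1 CPM in Th1, 83.6, 105, 97.4 and 92.4 CPM in TfhA and 60.7, 60.3, 61.8, 54.3 and 79.4 CPM in Tfh5. Its fall was 1.49-fold and 1.45-fold, and Tfh5 replicate 5 came close to the lowest Th1 and TfhA libraries. Neither E2f1 (-0.12 ± 0.18) nor E2f2 (0.04 ± 0.11) passed between TfhA and Th1 (edgeR adjusted p = 0.641 and 0.801). Ccne1 was at 66.8, 71.6, 72.6, 60.1 and 68.2 CPM in Th1, 86.8, 75.2, 81.6 and 84.1 CPM in TfhA and 29.7, 26.4, 26.7, 34.5 and 29.4 CPM in Tfh5. Tfh5 was 2.79-fold below TfhA and 2.31-fold below Th1 (-1.48 ± 0.10 and -1.21 ± 0.10). Ccne2 was at 35.4, 47.5, 50.1, 49.7 and 45.0 CPM in Th1, 59.8, 47.1, 49.0 and 48.9 CPM in TfhA and 12.9, 22.8, 21.2, 18.6 and 16.1 CPM in Tfh5. It overlapped between Th1 and TfhA (0.17 ± 0.14, edgeR adjusted p = 0.328) and was 2.80-fold lower in Tfh5 than in TfhA.

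**Figure D3:**
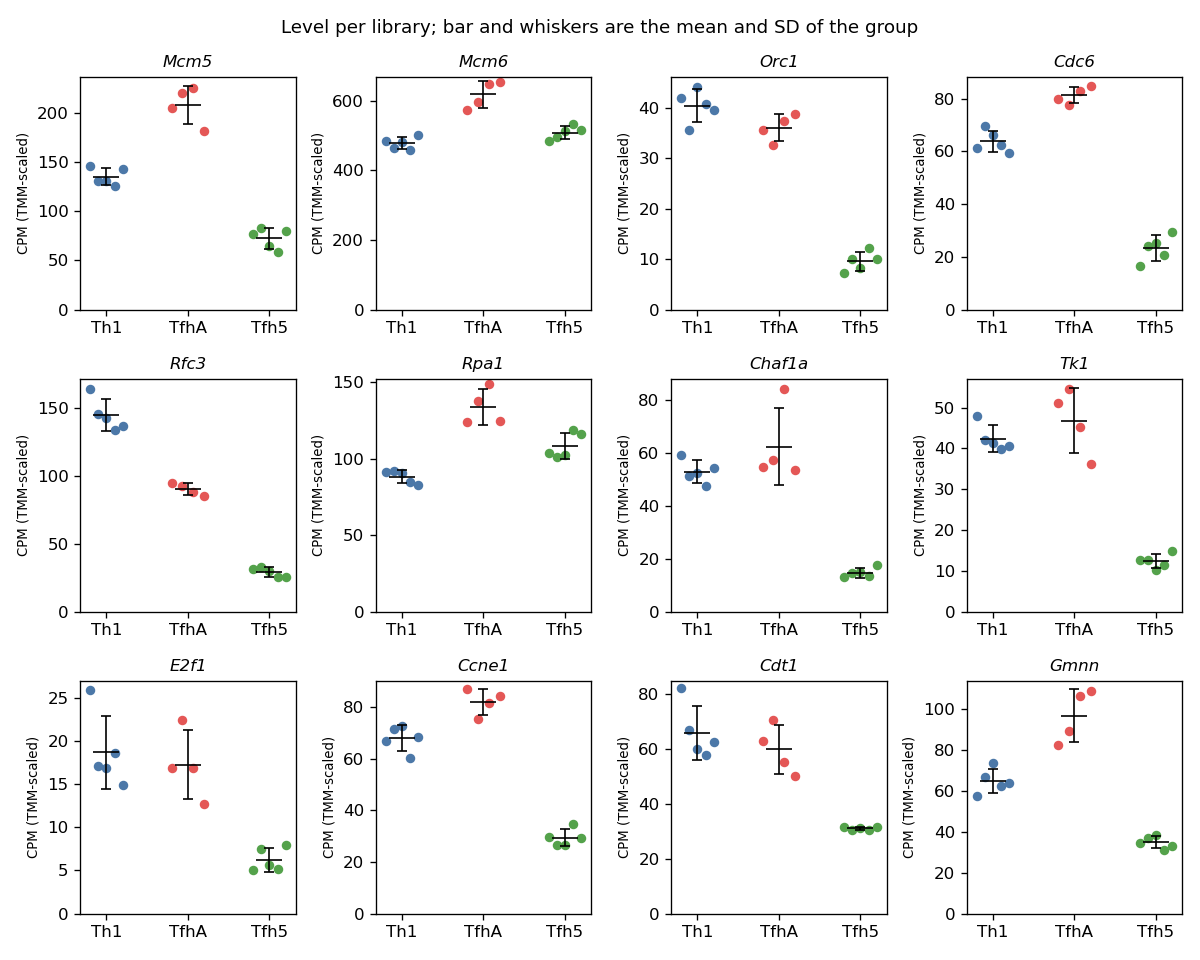
TMM-scaled CPM of 12 of the genes in each library (points), with the mean and SD of each group (bar and whiskers); each axis starts at 0. Tfh5 lies lowest in every panel but those of Mcm6, where it overlaps Th1, and Rpa1, where it lies between Th1 and TfhA.

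The mix of subunit transcripts within several complexes differed between the groups. No protein was measured, so these shares do not give the make-up of the complexes. CPM divided by the exon length in kilobases was summed over the subunits of each complex, and each subunit's share of that sum was taken within a library, so that it does not depend on library scaling; the shares are descriptions, since the subunits named were chosen after their values were seen. Mcm6 held 29.6% ± 0.228 (SD, n = 5) of the length-scaled Mcm2 to Mcm7 level in Th1, 26.4% ± 1.52 (n = 4) in TfhA and 38.6% ± 1.52 (n = 5) in Tfh5. The Tfh5 libraries ran from 37.2% to 40.4% and did not overlap either other group. Mcm5 went the other way, from 9.79% ± 0.405 in Th1 and 10.4% ± 0.880 in TfhA to 6.46% ± 0.908 in Tfh5. Rpa1 held 15.95% ± 1.13 of RPA in Th1, 17.4% ± 2.18 in TfhA and 27.9% ± 4.54 in Tfh5. Among the 4 small RFC subunits, Rfc3 held 40.0% ± 2.02 in Th1, 24.8% ± 1.81 in TfhA and 20.5% ± 1.59 in Tfh5, with Th1 apart from both. Gins2 held 18.1% ± 2.41, 15.6% ± 2.73 and 9.17% ± 2.10 of GINS in Th1, TfhA and Tfh5, and Gins1 15.3% ± 1.65, 19.3% ± 1.39 and 23.1% ± 2.57. Chaf1a held 39.3% ± 0.900, 33.3% ± 4.004 and 24.4% ± 1.999 of the pair with Chaf1b. The shares of Gins2 and Chaf1a rest on counts that could include reads of Gse1 and Ubxn6.

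**Figure D4:**
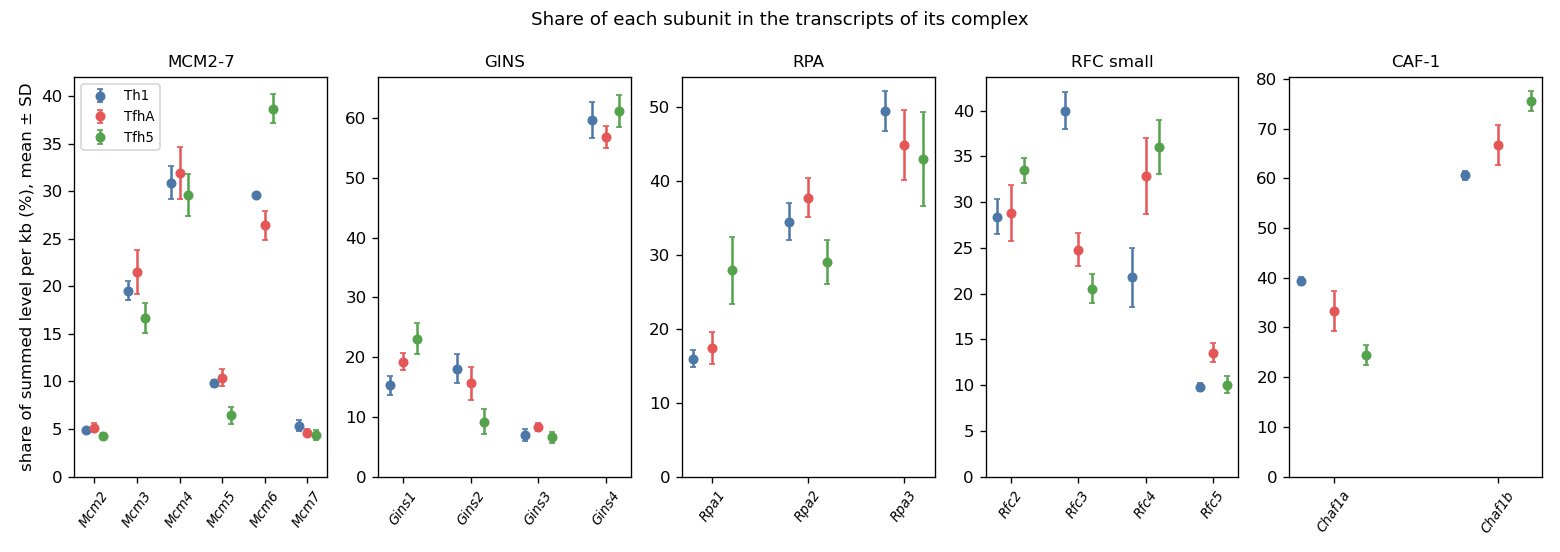
Share of each subunit in the summed level per kilobase of exon of its complex (mean ± SD over libraries; Th1 blue, TfhA red, Tfh5 green). The share of Mcm6 is highest and that of Mcm5 lowest in Tfh5, Rpa1 is highest in Tfh5, and Rfc3 is highest in Th1.

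The 4 pairs of partner genes were compared as log2 ratios of CPM within each library, with exact two-sided permutation tests over the libraries; the smallest p these group sizes allow is 0.00794, and p-values were adjusted over the 12 tests. The ratio of the loader Cdt1 to its inhibitor Gmnn was 0.51, 0.0015, -0.29, -0.11 and -0.03 in Th1, -0.38, -0.33, -0.94 and -1.11 in TfhA and -0.14, -0.28, -0.29, -0.03 and -0.05 in Tfh5. It was lowest in TfhA, -0.71 relative to Th1 and with Tfh5 higher by 0.53 (exact permutation p = 0.00794 each, adjusted 0.0238), with no overlap between TfhA and either group. Tfh5 and Th1 differed by -0.17 (exact permutation, adjusted p = 0.435). E2f1 relative to E2f2 was -2.04, -2.39, -2.40, -2.28 and -2.45 in Th1, -2.30, -2.22, -2.52 and -2.84 in TfhA and -3.55, -2.99, -3.43, -3.36 and -3.29 in Tfh5. Every Tfh5 library lay below every library of the other groups, by -0.86 against TfhA and -1.01 against Th1 in the mean (exact permutation, adjusted p = 0.0238 each), so E2f1 fell by more than E2f2. The ratio of Ccne1 to Ccne2 was 0.92, 0.59, 0.53, 0.27 and 0.60 in Th1, 0.54, 0.67, 0.73 and 0.78 in TfhA and 1.19, 0.21, 0.33, 0.89 and 0.86 in Tfh5. Its groups overlapped, with differences of 0.01, 0.10 and 0.11 (exact permutation, adjusted p = 0.968, 0.624 and 0.736) for Tfh5 minus TfhA, TfhA minus Th1 and Tfh5 minus Th1. Rrm1 relative to Rrm2 was 1.0001, 0.91, 0.96, 0.95 and 1.22 in Th1, 1.18, 1.07, 1.47 and 1.15 in TfhA and 1.38, 1.34, 1.43, 1.14 and 1.05 in Tfh5. These differences, 0.05, 0.21 and 0.26, did not pass either (exact permutation, adjusted p = 0.736, 0.111 and 0.0762). With any 1 library left out, the adjusted exact permutation p of the 4 differences that passed ran from 0.0317 to 0.0857, with the direction kept each time. Both differences between Tfh5 and TfhA then missed the threshold whichever TfhA or Tfh5 library was left out, that of Cdt1 to Gmnn between TfhA and Th1 whichever Th1 or TfhA library was left out, and that of E2f1 to E2f2 between Tfh5 and Th1, through the adjustment alone, whichever TfhA library was left out.

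**Figure D5:**
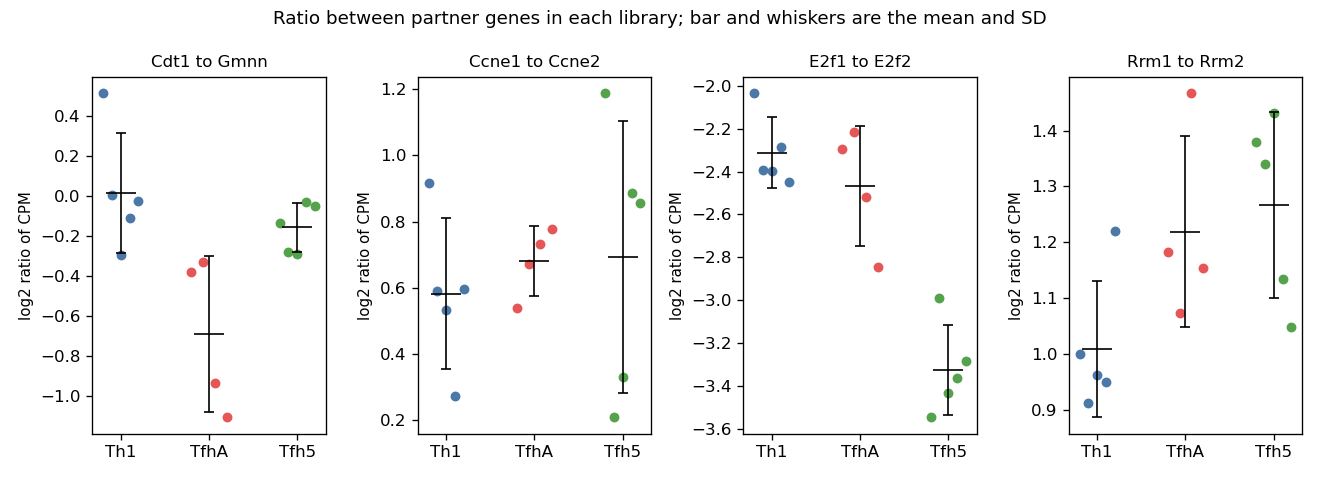
Log2 ratio of CPM between partner genes in each library (points) with the mean and SD of each group. Cdt1 to Gmnn is lowest in TfhA, E2f1 to E2f2 lowest in Tfh5, and the other 2 ratios overlap between groups.

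Per kilobase of exon, levels of the 43 genes ran from 5.20 to 107 CPM per kilobase in Th1, from 5.47 to 160.1 in TfhA and from 1.65 to 109 in Tfh5, with medians of 21.5, 25.9 and 12.6. Lengths were the union of GENCODE exons, which need not be the exons the authors counted. Mcm4 was the most abundant on this scale in Th1 (107) and TfhA (160.1), and Mcm6 in Tfh5 (109, against 83.6 for Mcm4). The lowest were Gins3 in Th1 (5.20), E2f1 in TfhA (5.47) and Chaf1a in Tfh5 (1.65). The median coefficient of variation of CPM between libraries of a group was 8.98% in Th1, 9.51% in TfhA and 12.004% in Tfh5. Over the 43 genes, the 2 libraries farthest from an even split were Tfh5 replicate 5, in which 34 of 43 genes lay above their group mean (median deviation 0.09 on the log2 scale), and Th1 replicate 4, in which 7 did (-0.08). The other 12 libraries had between 14 and 29 genes above their group mean.

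Rises in TfhA against Th1 were all under 2-fold, and the adjusted p of some lay near the threshold. For the 5 genes that lost their call with 1 library left out, the log2 fold change stayed positive under every alternative, from 0.25 to 0.35 for Gins4, 0.23 to 0.33 for Ccne1, 0.19 to 0.45 for Rrm2, 0.26 to 0.36 for Cdc45 and 0.26 to 0.39 for Mcm7. Gins4 (0.29 ± 0.11, edgeR adjusted p = 0.03) did not pass without Th1 replicate 1 (0.0628), Th1 replicate 3 (0.054), Th1 replicate 4 (0.0784), TfhA replicate 4 (0.0702) or TfhA replicate 5 (0.103). Ccne1 (0.27 ± 0.10, edgeR adjusted p = 0.0257) did not pass without Th1 replicate 4 (0.087), TfhA replicate 1 (0.0785) or TfhA replicate 5 (0.0648), nor with the replicate number as a block (0.057). Rrm2 (0.35 ± 0.12, edgeR adjusted p = 0.0176) did not pass without TfhA replicate 1 (0.051), 2 (0.0551) or 5 (0.0559). Cdc45 (0.30 ± 0.10, edgeR adjusted p = 0.0133) did not pass without TfhA replicate 1 (0.0546), and Mcm7 (0.32 ± 0.10, 0.0147) without TfhA replicate 2 (0.0604). Rpa3 and Pcna did the reverse: Rpa3 passed without TfhA replicate 2 (0.0244) or Tfh5 replicate 1, 3 or 5 (0.0478, 0.0484 and 0.0166), with the replicate number as a block (0.0385), and Pcna without TfhA replicate 4 (0.0358), by edgeR adjusted p. With library totals in place of TMM, Rpa3 (0.0216), Pcna (0.0337) and Uhrf1 (0.043) all passed by edgeR adjusted p. With only the 2 groups in the fit, Rpa3 (0.0294) and Uhrf1 (0.0345) passed as well. Th1 replicate 1, TfhA replicate 2 and TfhA replicate 5 were left out together as an alternative chosen after seeing how they stood apart, and 24 of the 43 genes then rose in TfhA and 1 fell. Calls over all genes dropped too, to 2182 rises and 2211 falls of 13539 tested, from 3031 and 2821 of 13075 in the main fit. Cdc6 (edgeR adjusted p = 0.108), Gins3 (0.0631) and Slbp (0.0586) did not pass without these 3 libraries, nor did Cdc45 (0.123), Gins4 (0.149), Rrm2 (0.364) or Ccne1 (0.0695), and Chaf1a passed (0.0374). All 43 falls against TfhA and all 41 calls of Tfh5 against Th1 remained in each of these fits.

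The wider replication machinery was counted over 107 other genes, all of which could be tested. They were 35 origin and fork genes, 20 of chromatin assembly and replication-linked repair, 19 of nucleotide supply and 33 regulators of entry into S phase. Genes are named by the largest change among those with at least 5 CPM in a group. Of the 35 origin and fork genes, 29 fell and 1 rose in Tfh5 against TfhA (median log2 fold change -0.99), 22 rose and none fell in TfhA against Th1 (0.34), and 26 fell and 2 rose in Tfh5 against Th1 (-0.57). Over all tested genes, 30.1% fell and 27.4% rose in Tfh5 against TfhA, 21.6% fell and 23.2% rose in TfhA against Th1, and 33% fell and 31.5% rose in Tfh5 against Th1. The nuclease and helicase Dna2 (3.32-fold), the MCM relative Mcm8 (3.10-fold) and Pold1, the catalytic subunit of polymerase δ (3.09-fold), were lowest in Tfh5 against TfhA, and Pold4, its small subunit, rose 1.61-fold. Rises in TfhA against Th1 were led by Pole2, a subunit of polymerase ε (2.12-fold), Dna2 (1.97-fold) and the checkpoint adaptor Clspn (1.82-fold). Against Th1, Tfh5 was lower for Pold1 (2.81-fold), the clamp loader subunit Chtf18 (2.75-fold) and the origin firing factor Ticrr (2.75-fold), and higher for the origin subunits Orc4 (1.36-fold) and Orc3 (1.17-fold).

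Of the 20 chromatin assembly and repair genes, 19 fell and none rose in Tfh5 against TfhA (median -1.36), 18 rose and none fell in TfhA against Th1 (0.48), and 16 fell and 1 rose in Tfh5 against Th1 (-0.75). The shares over all tested genes were 30.1% for falls in the first comparison, 23.2% for rises in the second and 33% for falls in the third. The nuclease Exo1 (3.88-fold) and the recombination factor Rad54l (3.36-fold) were among the lowest against TfhA; against Th1 Rad54l (3.06-fold), Exo1 (2.59-fold) and Fancd2 of the Fanconi pathway (2.43-fold) were, and the histone chaperone Asf1a was 1.19-fold higher (edgeR adjusted p = 0.04998). The uracil glycosylase Ung (2.05-fold), the histone chaperone Asf1b (1.90-fold) and the deubiquitinase Usp1 (1.71-fold) rose most in TfhA against Th1. The 19 nucleotide genes include genes of purine and pyrimidine synthesis such as Gart and Cad. Of the 19, 13 fell and 4 rose in Tfh5 against TfhA (median -0.72). In TfhA against Th1 10 rose and 1 fell (0.27), and in Tfh5 against Th1 11 fell and 5 rose (-0.40). The rises in Tfh5 were no larger a share of this list than of all tested genes, of which 27.4% rose against TfhA and 31.5% against Th1, while 30.1% and 33% fell and 23.2% rose in TfhA against Th1. Among the falls against TfhA were Shmt1, an enzyme of one-carbon metabolism, at 3.29-fold and the purine synthesis gene Gart at 2.44-fold; against Th1 the deaminase Dctd (2.03-fold) and the pyrimidine synthesis gene Cad (2.01-fold) fell. In Tfh5 the mitochondrial kinase Tk2 rose 1.59-fold, the p53-induced reductase subunit Rrm2b 1.43-fold and deoxycytidine kinase Dck 1.40-fold against TfhA, and Dck 2.39-fold, Cmpk1 1.62-fold and Tk2 1.56-fold against Th1. The kinases Nme1 (1.84-fold) and Dtymk (1.75-fold) and Gart (1.83-fold) rose in TfhA against Th1, where Samhd1, which degrades deoxynucleotides, fell 1.70-fold.

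The 33 regulators of S-phase entry include activators and inhibitors. In Tfh5 against TfhA 24 fell and 4 rose, in TfhA against Th1 14 rose and 3 fell, and in Tfh5 against Th1 21 fell and 8 rose. Over all tested genes, 30.1% fell and 27.4% rose in the first of these comparisons, 23.2% rose and 21.6% fell in the second, and 33% fell and 31.5% rose in the third. The Cdk inhibitors Cdkn1b and Cdkn1a moved in opposite directions. Cdkn1b, which encodes p27 and is high in resting T cells, stood at 112 ± 2.93 CPM in Th1, 127 ± 12.1 in TfhA and 276 ± 30.4 in Tfh5, 2.18-fold higher in Tfh5 than in TfhA and 2.46-fold higher than in Th1. Cdkn1a, which encodes p21, stood at 509 ± 62.9 CPM in Th1, 194 ± 29.6 in TfhA and 37.0 ± 4.64 in Tfh5, 5.26-fold lower in Tfh5 than in TfhA and 13.8-fold lower than in Th1, and TfhA was 2.62-fold below Th1. The retinoblastoma gene Rb1 rose in Tfh5, 1.63-fold against TfhA and 2.32-fold against Th1, as did the E2F partner Tfdp2 (1.86-fold and 1.66-fold). The D-type cyclins Ccnd2 and Ccnd3, which start the inactivation of the retinoblastoma protein, were highest in Th1: Ccnd3 was at 489.7 ± 39.6 CPM in Th1, 204 ± 36.8 in TfhA and 77.98 ± 6.05 in Tfh5 and Ccnd2 at 1387 ± 80.2 CPM in Th1, 904 ± 38.9 in TfhA and 423 ± 58.9 in Tfh5. Chek1, the checkpoint kinase that guards forks, and E2f7, a repressor among the E2F factors, were 2.74-fold and 2.698-fold lower in Tfh5 than in TfhA. Cdk6 (1.82-fold), the Cdk1 inhibitor Wee1 (1.78-fold) and Chek1 (1.70-fold) rose most in TfhA against Th1.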

How the data were processed

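RNA of 14 sorted CD4 T cell libraries (SENSE kit, 100 ng RNA) was aligned with STAR 2.7.2b to mm10 and counted with featureCounts 1.6.4, per the submitters' processing notes. The deposited values are raw counts per Entrez gene, made by the authors; no source used here gives the annotation, the strand setting or the handling of multi-mapping reads. The single-library files held the same values as the table of all 14 libraries. Replicates of a group differed by more than sampling noise (chi-square per degree of freedom 4.30 to 32.6 over 26 pairs), so each was counted as 1 sample.

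From these counts, edgeR 4.0.16 in R 4.3.3 fitted group means over all 14 libraries (filterByExpr, 13075 genes, TMM scaling, quasi-likelihood F test, Benjamini-Hochberg threshold 0.05); SE is the log2 fold change divided by the square root of F. Ratios used log2 CPM with a prior count of 2 and exact permutation tests. Lengths came from GENCODE vM21 exons and promoters from RefSeq GRCm38.p6. Alternatives were 3 other scalings, no filter, DESeq2 1.42.0, 2 groups only, a replicate block and each library left out. The edgeR step was also run on simulated counts, whose outcome is not given here. These had the same spread for every gene and far fewer changed genes than were called here, so they do not test that setting.

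All 43 genes are named. The value in every library is printed for a fixed set of them, with the 3 largest and 3 smallest changes of each comparison; from each other list up to 3 genes per direction and comparison are named, by size of change, with at least 5 CPM in a group. The 43 genes and all lists were chosen with earlier results of these data known. Some genes that this rule names are not reported here.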

Additional observations from a re-analysis of the deposited data

Results flagged for a closer look

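Single libraries stood apart from the rest of their group, by Dixon's criterion, in 10 of 141 sets of values for 1 gene or ratio in 1 group, where chance gives about 1 in 20. In Th1, replicate 5 was high for Cdc45 (84.1 CPM, the nearest library at 73.9) and for the log2 ratio of Rrm1 to Rrm2 (1.22, nearest 1.0001), and replicate 1 was high for Tk1 (48.0 CPM, nearest 42.2).

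In TfhA, replicate 4 was low for Rrm2 (230.3 CPM, nearest 309.9) and high for Chaf1a (84.2, nearest 57.2). Replicate 1 was low for Rpa2 (145.9 CPM, nearest 159) and high for Ccne2 (59.8, nearest 49.0), and replicate 2 was high for Uhrf1 (106 CPM, nearest 98.0). In Tfh5, replicate 5 was high for Pole (56.9 CPM, nearest 46.1) and Pcna (71.7, nearest 56.4).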

How the results depend on the processing

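All 43 falls in Tfh5 against TfhA, and the 40 falls and 1 rise against Th1, were called in each of 22 alternatives. In TfhA against Th1, 31 genes were called, and 25 to 34 under the alternatives (28 to 32 with 1 library left out); 26 of the 31 were called in all 21 alternatives other than the removal of 3 libraries together. Library totals alone gave 33 higher, no filter 27 and the removal of 3 libraries 24. Over all tested genes, the same fits gave 3495 of 13075, 2766 of 19512 and 2182 of 13539 higher. Of the 107 other pathway genes, 94, 68 and 90 were called in Tfh5 minus TfhA, TfhA minus Th1 and Tfh5 minus Th1, and 92 to 96, 49 to 74 and 85 to 91 under the alternatives. Of all tested genes, 57.5%, 44.8% and 64.6% were called in these comparisons in the main fit.

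Uncalled log2 fold changes in TfhA minus Th1 changed sign for 3 genes. With 1 library left out they ran from -0.045 (TfhA replicate 4) to 0.11 for Rfc2, from -0.27 to 0.028 (Th1 replicate 1) for E2f1, and from -0.019 (TfhA replicate 2) to 0.095 for E2f2, and without a filter Rfc2 was at -0.0070. The cause was not tested.

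With 1 library left out, the difference in Cdt1 to Gmnn ran from 0.39 to 0.65 (Tfh5 minus TfhA) and -0.83 to -0.57 (TfhA minus Th1), and in E2f1 to E2f2 from -0.98 to -0.77 (Tfh5 minus TfhA) and -1.10 to -0.94 (Tfh5 minus Th1), some above the threshold, since fewer libraries raise the smallest p that the 12 tests allow. Rrm1 to Rrm2 in Tfh5 minus Th1 ran from 0.22 to 0.31 and passed without Th1 replicate 5 (exact permutation, adjusted p = 0.0476). Uncalled differences changed sign for Ccne1 to Ccne2 (-0.11 to 0.13 in Tfh5 minus TfhA, -0.011 to 0.23 in Tfh5 minus Th1) and for Rrm1 to Rrm2 in Tfh5 minus TfhA (-0.00067 to 0.13). Without the 3 libraries left out together, the values were 0.50 and -0.55 for Cdt1 to Gmnn, -0.92 and -0.94 for E2f1 to E2f2 (exact permutation, adjusted p = 0.143, 0.16, 0.143 and 0.0952) and -0.058 for Rrm1 to Rrm2 in Tfh5 minus TfhA.

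Libraries with the same replicate number deviated little together over the tested genes. Correlations ran from -0.05 to 0.05 between Tfh5 and either other group. Between TfhA and Th1 they ran from -0.00046 to 0.155, 1 of 4 above 0.1. TfhA and Th1 libraries of different number gave -0.37 to 0.33, both ends with Th1 replicate 1. What the numbers mark is given by no source used here and cannot be read from these correlations. With the replicate block, 43, 31 and 41 of the 43 genes were called, Rpa3 gained and Ccne1 lost in TfhA minus Th1. Over all 13075 genes, that fit gave 3432 rises and 3826 falls in Tfh5 minus TfhA. It gave 2837 and 2684 in TfhA minus Th1, and 4010 and 4275 in Tfh5 minus Th1. The largest shift of the median over all genes by scaling was from 0.03 to 0.08 in TfhA minus Th1, with library totals. Depth kept none of the 43 genes out of the tests.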
